A study of Mus musculus with 27 samples.

Results

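The 10 genes described here act in myostatin, activin and BMP signalling: the ligand genes Mstn, Inhba, Inhbb, Gdf5 and Bmp4, the secreted binding protein Fst and its relative Fstl1, the receptor genes Acvr1b and Acvr2b, and the BMP target Id1. They were taken by gene name from the 54532 rows of the gene table, and all 10 were found. Of these, 9 passed the filter on low values and were tested among 14630 genes, while Inhba did not pass it. The filter asked for an FPKM (fragments per kilobase of a gene, divided by a scaling factor of the library) of at least 0.5 in at least 5 samples.

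PolyA RNA of the tibialis anterior muscle of C57BL/6 mice was sequenced after volumetric muscle loss (VML), a surgical loss of muscle tissue too large for the muscle to rebuild. The mice were 8-week-old males in which 40% of the muscle had been removed. Muscles were collected 3, 7, 14 or 21 days later (5, 6, 6 and 5 samples) and compared with 5 control samples without injury, which differed from the others only in having had no excision as far as the labels tell. The sources differ on whether the muscle was cut on one side or on both, and do not tie samples to mice, so p-values measure only the spread between samples.

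Myostatin, activins and BMPs are secreted proteins of the TGF-beta family, made as precursors that proteases cut. They bind pairs of serine/threonine kinase receptors, which phosphorylate Smad proteins. Myostatin and activins act through Smad2 and Smad3 and limit muscle mass, whereas BMPs act through Smad1 and its relatives, switch on the Id genes and oppose muscle wasting. Follistatin, the product of Fst, holds activins and myostatin away from their receptors.

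Libraries held 14376395 to 24436763 reads in genes, with a median of 17398586. In the tested genes, 9 of 27 samples lay nearer to the mean of another group than to their own. Of these, day 3 replicate 5 was nearest to day 7 and day 7 replicate 5 to day 3. Their summed FPKM of 5 macrophage genes was 306 and 1988, against medians of 1403 at day 3 and 252 at day 7. A fit without both is among the alternatives given below. Also among the 9, day 7 replicate 3 was nearest to the uninjured samples and day 7 replicate 6 to day 21. In these 2 samples the summed FPKM of Myh3 and Myh8, the myosins of regenerating fibres, was 0.845 and 1.75, against a day 7 median of 31.7 and an uninjured range of 0.421 to 1.62. The summed FPKM of 4 adult fast fibre genes (Ckm, Acta1, Mylpf and Myh4) was 58051 and 51277 in them, against a day 7 median of 32713. That of 4 satellite cell and myoblast genes was 25.1 and 23.9, within the uninjured range of 16.9 to 25.7. Other markers set them apart from uninjured muscle. The sum of 4 fibroblast genes was 443 and 245, and of 5 macrophage genes 121 and 42.7, against uninjured maxima of 105 and 24.2. That of 2 adipocyte genes was 26.6 and 14.7, against 1.76. Member calls at day 7 that changed without these 2 samples are therefore given with and without them. Libraries did not keep the strand. Reads of Inhba, Fst, Acvr2b, Gdf5 and Bmp4 can thus not be told apart from those of overlapping genes on the opposite strand. Reads of Acvr1b cannot be told apart from those of Mir6962, which overlaps it on the same strand. In bulk tissue, fewer cells of a type and less RNA per cell cannot be told apart.

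The injury groups differed from uninjured muscle mainly in the binding proteins and in Id1. Fstl1 and Id1 rose at day 3 and Fst by day 7, and all 3 were still higher at day 21, while among the ligands Mstn fell and Gdf5 rose at day 3. In limma tests on log2(FPKM + 1) with Benjamini-Hochberg adjustment over all tested genes, 3 of 9 members rose and 1 fell at day 3, beside 23.4% and 19.8% of all tested genes. At day 7, 2 rose and 0 fell (15% and 14.4% of all), and at day 14, 3 rose and 0 fell (9.02% and 11.3%). At day 21, 3 rose and 0 fell, beside 1.74% and 1.69% of all tested genes. The median difference of the 9 members was 0.31, 0.17, 0.28 and 0.23 (log2) at days 3, 7, 14 and 21, against 0.01, 0.03, 0.02 and 0.01 over all tested genes. FPKM were also scaled to a common sum per sample. The median of all tested genes was then 0.50, 0.47, 0.28 and 0.11 at days 3, 7, 14 and 21. No member then passed at day 21, where 40 of 15116 tested genes rose and 5 fell. An F test over the 5 groups called 3 members, Fstl1, Fst and Id1, beside 39.9% of all tested genes.

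**Figure D1:**
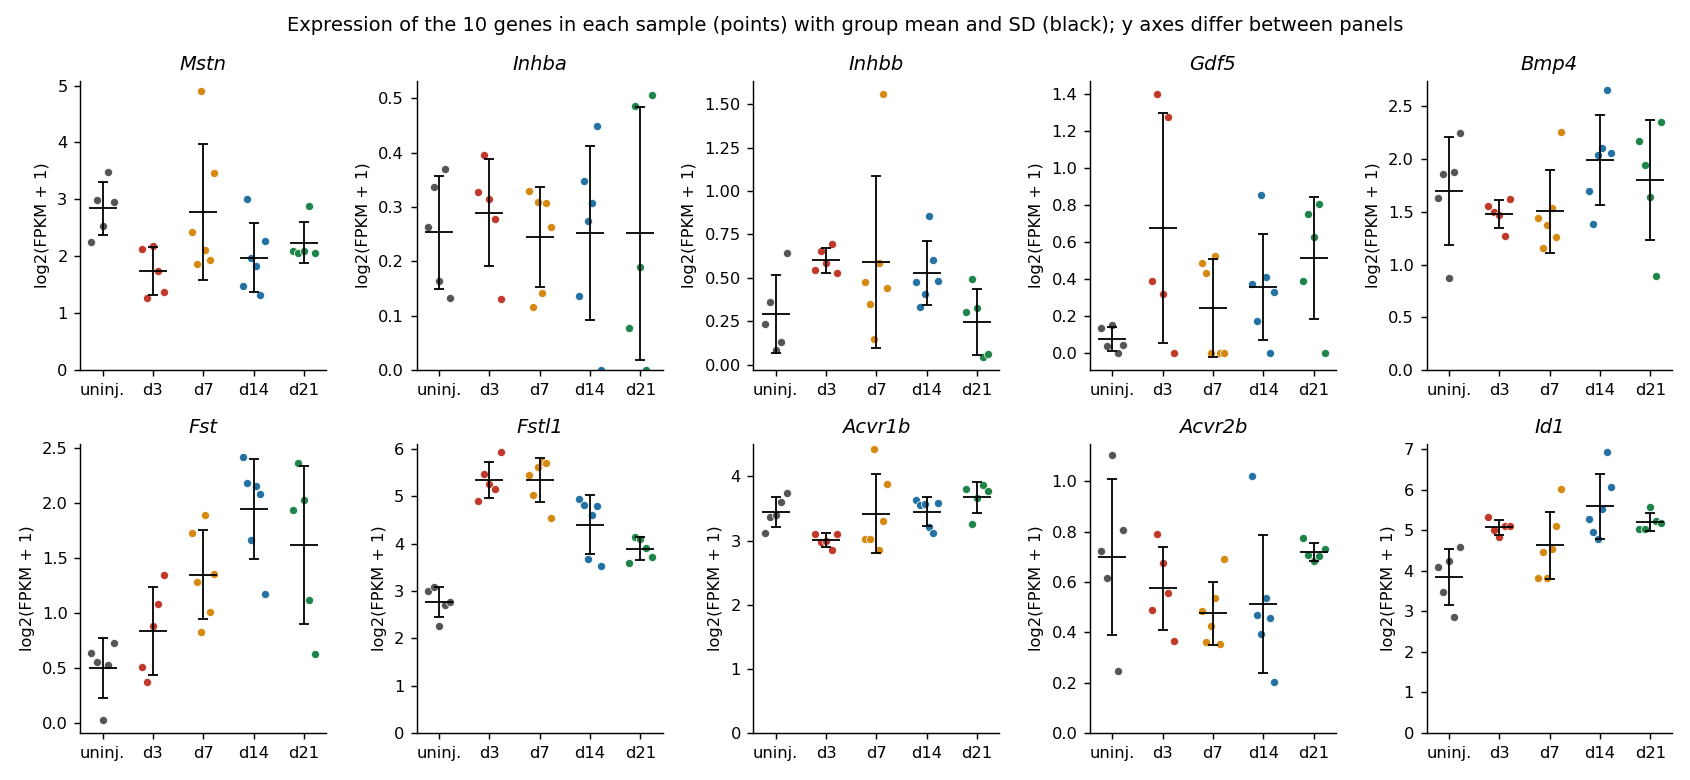
Level of each of the 10 genes as log2(FPKM + 1) on the y axis (scales differ between panels) in uninjured muscle (uninj.) and at days 3, 7, 14 and 21 after VML (d3 to d21). Points are samples (5, 5, 6, 6 and 5), and black marks are group means with SD. All injured samples of Fstl1 lie above the uninjured ones, and day 7 replicate 3 (28.8 FPKM) stands above all others in Mstn.

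Mstn (ENSMUSG00000026100, chromosome 1, 53061640 to 53068079, plus strand) encodes myostatin, a brake on muscle growth made by muscle fibres. Its promoter is shown because Mstn was the only ligand gene of the 5 that fell at any time, and it is set beside that of Fstl1, the member with the largest day 3 difference on the log2(FPKM + 1) scale. In FPKM, the fold of means was 6.87 for Fstl1 and 13.8 for Gdf5, which had few reads. Sequences are the reference of RefSeq (GRCm38.p6), in which 7 of the 10 genes had an entry. Mstn is shown from 250 bases upstream up to its start and Fstl1 over the 68 bases before its start, 5′ to 3′, with the E-box letters CANNTG, the motif of MyoD and related factors, in capitals.

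Mstn chr1:53061390-53061639, plus strand: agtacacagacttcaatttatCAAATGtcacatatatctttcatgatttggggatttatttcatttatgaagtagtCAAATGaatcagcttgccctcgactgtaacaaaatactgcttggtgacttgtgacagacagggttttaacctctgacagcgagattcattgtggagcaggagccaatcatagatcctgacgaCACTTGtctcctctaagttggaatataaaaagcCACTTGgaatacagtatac
Fstl1 chr16:37776805-37776872, plus strand: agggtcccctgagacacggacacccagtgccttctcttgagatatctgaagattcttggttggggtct

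The Mstn window of 300 bases held 4 CANNTG matches, which start at positions -229, -174, -52 and -19 from the gene's start, and 1 TATAAA match. The Fstl1 window of 300 bases held 0 CANNTG matches. Only its first 68 bases lie before the gene's start, against 250 for Mstn, so the 2 windows do not cover like stretches. Of 32817 promoter windows of this length, 72.3% held at least 1 CANNTG match and 13.6% a TATAAA match on either strand, and the median window held 1 CANNTG match. CAGAC, the core letters bound by Smad3 and Smad4, occurred 2 times in the Mstn window and 0 times in the Fstl1 window, beside 49.6% of all windows with a match. GGCGCC, letters bound by Smad1 and Smad4, occurred in 1 of the 7 member windows, that of Acvr1b, beside 11.9% of all. These are matches of letters and were not tested for binding.

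In uninjured muscle Mstn was at 3.77, 6.96, 4.76, 10.2 and 6.74 FPKM in replicates 1 to 5. At day 3 it was at 3.35, 1.40, 3.54, 2.34 and 1.58 FPKM. All 5 day 3 samples lay below all 5 uninjured ones. Mstn thus fell by 1.11 ± 0.42 (log2, SE) at day 3, with an adjusted p of 0.034 from limma, and mean FPKM was 2.44 ± 0.984 against 6.48 ± 2.46 (SD, n = 5 each). Leaving out a single sample among uninjured replicates 2, 4 and 5 and day 3 replicates 2, 4 and 5 each ended this call, with adjusted p of 0.062, 0.092, 0.060, 0.079, 0.058 and 0.072. When each sample's FPKM were brought to the same sum, Mstn had a day 3 difference of -0.46 (adjusted p 0.33). Relative to the median of all tested genes this was -0.96, against -1.12 in the deposited scaling. The call held in 12 of 16 alternatives. It also ended without the filter on low values (-1.11, adjusted p 0.077) and with each sample's own read total (-0.58, 0.21). Leaving out day 3 replicate 5 and day 7 replicate 5 together ended it as well (-1.02, 0.065).

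At day 7 Mstn ranged from 2.63 to 28.8 FPKM with a median of 3.85, and its difference from uninjured muscle was -0.06 (adjusted p 0.93). The 2 highest values, 28.8 and 9.97 FPKM, belonged to replicates 3 and 6, the 2 samples described above. The value of replicate 3 also lay above all uninjured samples, the highest of which was at 10.2 FPKM. Without replicates 3 and 6 Mstn was lower than in uninjured muscle by a difference of -0.76 with an adjusted p of 0.037. At day 14 it ranged from 1.49 to 7.02 FPKM around a median of 2.74, a difference of -0.86 (adjusted p 0.13). With day 7 replicate 3 left out of the shared fit the day 14 difference passed the threshold, at an adjusted p of 0.037. At day 21 it was at 3.26, 3.17, 3.28, 6.37 and 3.18 FPKM, a difference of -0.60 that did not pass (adjusted p 0.44, 95% interval -1.46 to 0.26).

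Genes of adult fast fibres moved with Mstn at day 3. Ckm, the muscle creatine kinase, had a difference of -1.43, and Myh4, the fastest myosin heavy chain, of -1.94, and all 4 fibre genes fell at day 3. With a common sum per sample the difference of Acta1, skeletal muscle actin, turned to 0.05, and only Myh4 of the 4 still passed (-1.12, adjusted p 0.0048). Acta1 was then at -0.44 relative to the median of all tested genes. The sums of the 4 fibre genes below are in the deposited scaling. Their summed FPKM ranged from 16879 to 43768 at day 3 and from 51160 to 61045 in uninjured muscle, without overlap and with none of the 4 at 0. Within each sample, Mstn minus the mean of the 4 fibre genes was -10.2 ± 0.780 at day 3 and -10.4 ± 0.436 in uninjured muscle (log2, SD, n = 5 each), so the 2 groups overlapped. The difference of 0.20 had an adjusted p of 0.61 over 12 exact permutation tests, and became -0.08 with a pseudocount of 0.1. At day 7 this within-sample difference was higher by 0.74 (adjusted p 0.13, exact permutation test), and in 5 of 6 samples. Replicates 3 and 6 were at -8.57 and -9.68 there. The day 7 value of 0.74 ranged from 0.52 to 0.93 with single samples left out, and was not computed without both replicates.

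The activin genes stayed low. Inhba, which encodes the beta A chain of activin A, ranged from 0 to 0.421 FPKM over all 27 samples, from 0 to 53 reads. It was at 0 reads in day 14 replicate 6 and day 21 replicate 4, which allows up to 0.0398 and 0.0312 FPKM (3 reads, counting error only). Mean FPKM was 0.194 ± 0.0860 in uninjured muscle, then 0.224 ± 0.0812, 0.187 ± 0.0747, 0.197 ± 0.130 and 0.203 ± 0.196 at days 3, 7, 14 and 21 (SD). Groups overlapped at every time, and the exact permutation p against uninjured muscle lay between 0.59 at day 3 and 1 at day 21. Differences were therefore not detectable at this depth.

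Inhbb, the beta B chain of activin B, was at 0.176, 0.287, 0.0601, 0.0955 and 0.562 FPKM in uninjured muscle and at 0.462, 0.575, 0.499, 0.619 and 0.442 FPKM at day 3. The day 3 samples were more alike than the uninjured ones, and only uninjured replicate 5 reached into their range. Differences were 0.31, 0.30 and 0.24 at days 3, 7 and 14 and -0.05 at day 21, and none passed (adjusted p of 0.17, 0.18, 0.34 and 0.92). Day 7 replicate 5, which lay nearest to day 3 over the tested genes, was at 1.94 FPKM (288 reads), far above the day 7 median of 0.376. Without this sample in the fit the difference at day 3 passed, at an adjusted p of 0.040. Without day 7 replicates 3 and 6 the day 7 difference passed, at 0.45 with an adjusted p of 0.048.

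Gdf5 and Bmp4 encode BMP-type ligands, of which GDF5 is known to rise in denervated muscle and BMP4 to act on muscle precursor cells. Gdf5 had 3, 1, 3, 0 and 1 reads in uninjured replicates 1 to 5, a total of 8, and 15, 62, 15, 75 and 0 reads at day 3, a total of 167. In FPKM, day 3 samples were at 0.310, 1.63, 0.245, 1.42 and 0, and uninjured ones at 0.110 or below. Gdf5 rose by 0.60 ± 0.22 at day 3 (adjusted p 0.026), with 4 of 5 samples above all uninjured samples. The call ended without day 3 replicate 2 (adjusted p 0.11) or replicate 4 (0.11), and without the filter on low values (0.053). It passed in 10 of 15 alternatives, and also ended under quantile normalization (0.42, adjusted p 0.11), voom weights on recovered reads (0.22), a pseudocount of 0.1 (0.051) and a fit of the 2 groups alone (0.059).

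At later times Gdf5 was at 0 in 3 of 6 samples at day 7, 1 of 6 at day 14 and 1 of 5 at day 21, where the other 4 lay between 0.307 and 0.746 FPKM. A value of 0 allowed up to 0.0371 to 0.116 FPKM, depending on the library. The differences at days 7, 14 and 21 were 0.17, 0.28 and 0.44, with adjusted p of 0.57, 0.34 and 0.26.

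Bmp4 ranged from 0.834 to 5.27 FPKM over all samples. Its group means were 2.39 ± 1.05 in uninjured muscle and 1.80 ± 0.250, 1.94 ± 0.935, 3.12 ± 1.24 and 2.69 ± 1.26 on days 3, 7, 14 and 21 (FPKM, SD). No time point passed, the intervals of the difference reaching from -0.75 to 0.32 at day 3 and from -0.22 to 0.80 at day 14. Each time point overlapped with uninjured muscle.

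Fst (ENSMUSG00000021765, chromosome 13, 114452290 to 114458951, minus strand) encodes follistatin. In uninjured muscle it was at 0.556, 0.468, 0.0186, 0.443 and 0.655 FPKM, the lowest of these from a single read. At day 3 it was at 0.418, 0.293, 0.842, 1.11 and 1.54 FPKM, which overlapped with uninjured muscle. At day 7 it ranged from 0.767 to 2.71 FPKM (median 1.496) and at day 14 from 1.26 to 4.35 (median 3.34). All samples of both groups lay above all uninjured samples.

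Fst did not pass at day 3 (0.34 ± 0.28, adjusted p 0.35). It rose by 0.85 ± 0.27, 1.45 ± 0.27 and 1.12 ± 0.28 on days 7, 14 and 21, with limma adjusted p of 0.019, 0.000998 and 0.026. Of 4 genes of satellite cells and myoblasts (Pax7, Myf5, Myod1 and Myog), 2 (Myod1 and Myog) were higher at each of these times. At day 3, where Fst did not pass, 3 (Pax7, Myod1 and Myog) were higher. The summed FPKM of the 4 had its highest median at day 3, 290 against 125, 142 and 91.1 at days 7, 14 and 21. Their summed FPKM was 16.9 to 25.7 in uninjured muscle, 23.9 to 203 on day 7, 94.6 to 165 on day 14 and 39.3 to 119 on day 21, with none of the 4 at 0, and their part in the result was not tested. The mean FPKM at day 14 was 7.01 times that of uninjured muscle. At day 21 the samples were at 2.83, 4.16, 3.08, 1.17 and 0.547 FPKM, so that replicate 5 lay within the uninjured range and the others above it. In the order of mean FPKM, uninjured muscle was followed by days 3, 7, 21 and 14. Days 21 and 14 overlapped in their samples, as did days 3 and 7.

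Day 21 exceeded day 3 by 0.78 in Fst (adjusted p 0.042), beside 9.23% of tested genes called higher. This difference lost its call without any one of day 3 replicates 1 to 4 or day 21 replicates 1 to 3, with adjusted p from 0.059 to 0.13. It passed in 10 of 16 alternatives, and was 0.47 (0.31) with a common sum per sample and 0.54 (0.20) with each sample's own read total. The day 7 call was lost without uninjured replicate 3 (adjusted p 0.060) or day 7 replicate 4 (0.054). Without uninjured replicate 3 or 4, or day 21 replicate 1, 2 or 3, the day 21 call was lost as well (0.066, 0.059, 0.070, 0.096 and 0.053). With a common sum per sample the day 21 difference was 1.12 and did not pass (0.21). The day 14 call held in all 27 fits with a sample left out, with values from 1.33 to 1.61.

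Within each sample, log2(FPKM + 1) of Inhba minus that of Fst changed from uninjured muscle by -0.86, -1.45 and -1.12 on days 7, 14 and 21. Fst alone changed by 0.85, 1.45 and 1.12, so this difference restates the values of Fst and does not measure the ligand gene, which had at most 53 reads in any sample.

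**Figure D2:**
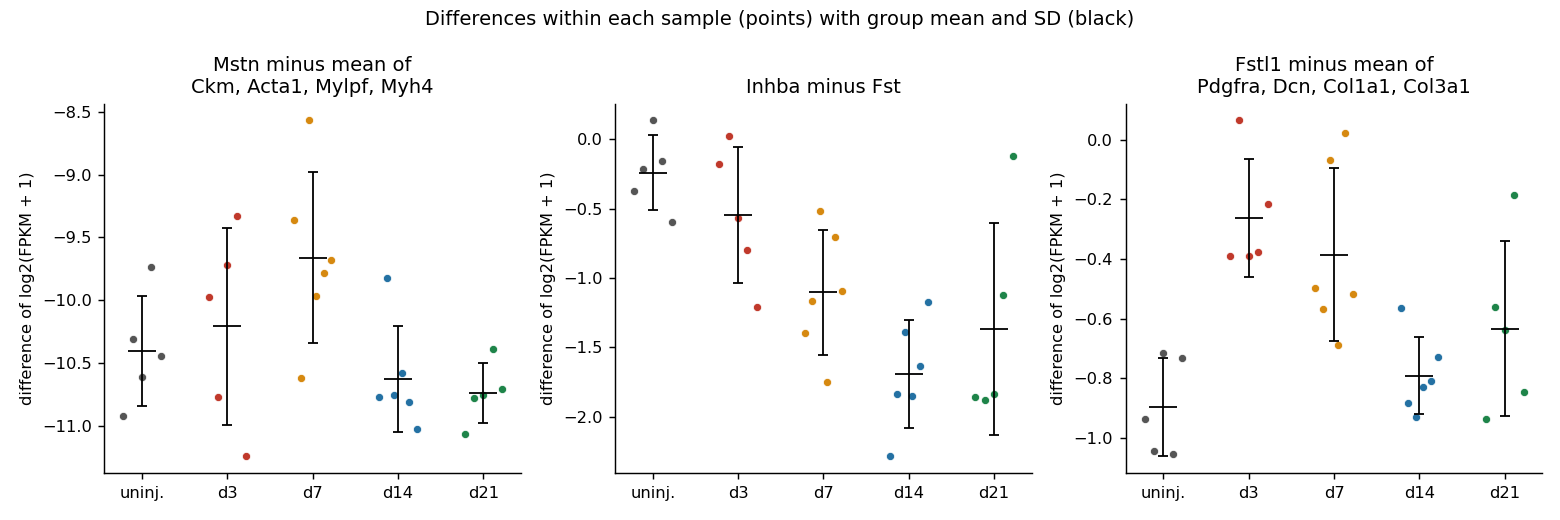
Differences of log2(FPKM + 1) between genes of the same sample on the y axis, by group (uninjured, days 3, 7, 14 and 21). Points are samples, and black marks are means with SD. Inhba minus Fst follows the level of Fst, Inhba being near 0 throughout. Fstl1 minus the mean of 4 fibroblast genes is higher at days 3 and 7 than in uninjured muscle, although Col1a1 and Col3a1 each rose more than Fstl1. Mstn minus the mean of 4 fibre genes overlaps between uninjured muscle and every time point.

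Fstl1 (ENSMUSG00000022816, chromosome 16, 37776873 to 37836514, plus strand) encodes a secreted glycoprotein related to follistatin, made by many mesenchymal cells. Uninjured samples were at 7.01, 7.48, 3.82, 5.54 and 5.80 FPKM, and day 3 samples at 28.8, 43.5, 37.1, 34.5 and 59.8 FPKM. Day 7 samples ranged from 22.4 to 51.8 (median 45.3), and day 14 samples from 10.6 to 29.8 (median 24.9). Day 21 samples were at 11.02, 16.7, 16.04, 14.0 and 12.1 FPKM. No injured sample at any of the 4 times reached down into the uninjured range.

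Mean FPKM of Fstl1 was 6.87, 6.95, 3.63 and 2.36 times that of uninjured muscle at days 3, 7, 14 and 21. On the log2(FPKM + 1) scale it rose by 2.57 ± 0.27, 2.58 ± 0.25, 1.63 ± 0.25 and 1.12 ± 0.27, with adjusted p of 2.19e-07, 8.68e-07, 0.000241 and 0.019. The day 21 call was lost without uninjured replicate 3 (adjusted p 0.054) or day 21 replicate 2 (0.061), and with a common sum per sample, where the difference itself was 1.27 (0.19). At day 21 Fstl1 was below day 3, having fallen between them by a difference of -1.45 ± 0.27 (adjusted p 0.000342), beside 16.2% of tested genes called lower.

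The genes of fibroblasts and fibro-adipogenic cells moved with Fstl1. Of 4 such genes, 3 (Pdgfra, Col1a1 and Col3a1) rose at each of days 3, 7 and 14 and 2 at day 21, and Dcn, the proteoglycan decorin, did not pass at any time, although it did with a common sum per sample at days 3 and 7 (0.90 and 1.32, adjusted p of 0.029 and 0.0034). Their summed FPKM was 39.2 to 105 in uninjured muscle. It spanned 367 to 745 and 245 to 1011 on days 3 and 7 and 130 to 502 and 106 to 188 on days 14 and 21, with none of the 4 at 0. Within each sample, Fstl1 minus the mean of the 4 genes was higher than in uninjured muscle by 0.63 at day 3 (5 of 5 samples) and 0.51 at day 7 (6 of 6), with adjusted p of 0.032 and 0.026 over 12 exact permutation tests. The day 7 call ended without uninjured replicate 1, 2 or 4 (adjusted p 0.057 each). At days 14 and 21 it was higher by 0.11 and 0.26 and did not pass (0.32 and 0.20). The 4 genes differed among themselves. Col1a1 and Col3a1 rose by 3.66 and 3.16 at day 3 and by 3.54 and 3.29 at day 7, more than Fstl1. Pdgfra rose by 0.84 and 0.82, and Dcn differed by 0.10 and 0.61, less than Fstl1. The difference from their mean thus does not place Fstl1 above each of the 4. The share of fibroblasts in these results was not tested.

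Acvr1b and Acvr2b encode a type I and a type II receptor for activins and myostatin. Acvr1b was at 7.70, 9.30, 9.55, 11.2 and 12.3 FPKM in uninjured muscle and at 7.61, 6.84, 6.93, 6.25 and 7.63 FPKM at day 3. The day 3 samples lay below all uninjured ones, with replicate 5 at 7.63 FPKM just under the lowest of them at 7.70. The difference of -0.44 ± 0.21 at day 3 did not pass (adjusted p 0.099). It passed without day 7 replicate 3 in the fit (0.033), and under a common sum per sample it turned to 0.30 (0.29). Relative to the median of all tested genes it was then -0.20, against -0.45 in the deposited scaling.

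Day 21 samples of Acvr1b were at 13.01, 8.55, 11.7, 13.5 and 12.7 FPKM. They exceeded day 3 by 0.67 ± 0.21 (adjusted p 0.023), with no overlap. That call was lost without day 3 replicate 4 (adjusted p 0.062) or day 21 replicate 4 (0.053), and under a common sum per sample (0.10, adjusted p 0.76). Neither days 7 and 14 nor day 21 passed against uninjured muscle, with differences of -0.02, 0.00 and 0.23.

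At day 7, Acvr1b was highest in replicates 3 and 6, at 20.54 and 13.8 FPKM, against a median of 8.05. Without these 2 samples it was lower than in uninjured muscle by a difference of -0.39 (adjusted p 0.035), whereas with all samples and a common sum per sample it was higher by 0.63 (0.025). The latter difference was 0.16 relative to the median of all tested genes. Over the 27 samples Acvr1b and Mstn had a Pearson r of 0.68, and 0.52 over the 26 without day 7 replicate 3, with time points and scaling shared by all of them.

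Acvr2b ranged from 0.151 to 1.15 FPKM over all samples, at 7 to 90 reads. It passed the test at no time, with differences of -0.12, -0.22, -0.19 and 0.02 at days 3, 7, 14 and 21 and adjusted p from 0.20 to 0.95. At day 21 its samples lay close together, between 0.607 and 0.709 FPKM, while uninjured samples spanned 0.186 to 1.15 FPKM.

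Id1 (ENSMUSG00000042745, chromosome 2, 152736251 to 152737410, plus strand) encodes an inhibitor of basic helix-loop-helix factors such as MyoD and is a direct target of BMP signalling. Uninjured samples were at 16.1, 10.1, 18, 6.30 and 22.9 FPKM and day 3 samples at 39.2, 31.4, 27.4, 33.3 and 33.6 FPKM. Day 7 samples ranged from 13.3 to 63.6 (median 21.6), and day 14 samples from 26.8 to 122 (median 41.5). Day 21 samples were at 31.7, 32.0, 46.5, 36.6 and 35.7 FPKM. At days 3, 14 and 21 all samples lay above all uninjured ones, and at day 7 the groups overlapped.

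Id1 rose by 1.23 ± 0.38 at day 3 (adjusted p 0.010), 1.74 ± 0.36 at day 14 (0.0021) and 1.36 ± 0.38 at day 21 (0.043), and did not pass at day 7 (0.78 ± 0.36, adjusted p 0.10). Under a common sum per sample day 7 passed as well, at 1.46 with an adjusted p of 0.0028, and without day 7 replicate 3 at 0.94 with 0.048. The calls at days 3 and 14 held in all 27 fits with a sample left out. The day 21 call held in 16 of 27 and was lost without uninjured replicate 1, 2, 3 or 4, day 3 replicate 2 or 3, or any of the 5 day 21 samples, with adjusted p from 0.050 to 0.13. With a common sum per sample it was 1.53 and just missed the threshold (0.057).

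Macrophage genes (Adgre1, Cd68, Csf1r, Itgam and Lyz2) were also higher in injured muscle, 5, 4, 2 and 0 of 5 passing on days 3, 7, 14 and 21. Their summed FPKM was 15.9 to 24.2 in uninjured muscle, 306 to 2127 and 42.7 to 1988 on days 3 and 7, and 42.7 to 99.6 and 30.7 to 55.5 on days 14 and 21, with none of the 5 at 0. The sum of the 4 satellite cell and myoblast genes was 74.6 to 294 on day 3. Of 3 endothelial genes (Pecam1, Cdh5 and Kdr), only Kdr was called, lower at all 4 times. Their summed FPKM was 51.3 to 62.4 in uninjured muscle, 34.2 to 78.3 on day 3, 40.5 to 105 on day 14 and 46.7 to 65.7 on day 21. Day 14 replicate 5 held both the highest of these sums and the highest Id1 value. The part of any of these cells in the Id1 result was not tested.

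**Figure D3:**
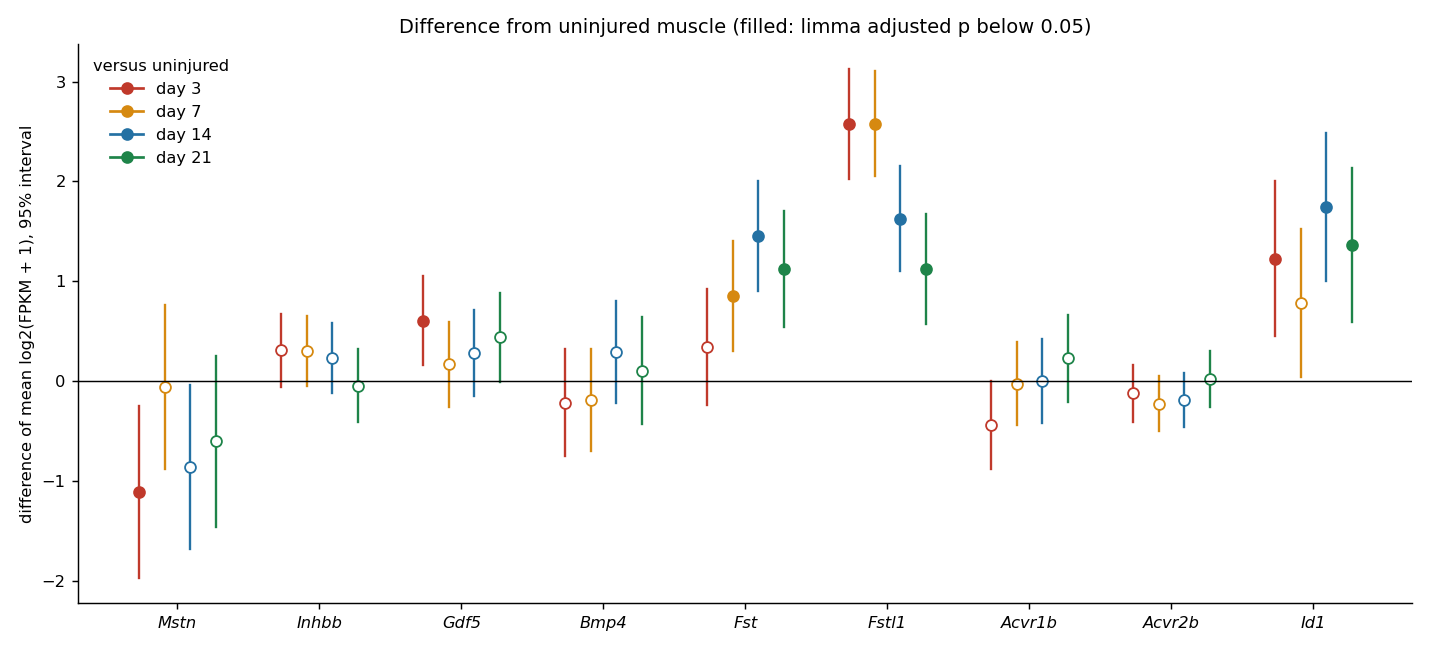
Difference of mean log2(FPKM + 1) from uninjured muscle on the y axis for the 9 tested genes at days 3, 7, 14 and 21, with 95% intervals from limma. Filled points have an adjusted p below 0.05. Fstl1 is filled at all 4 times, Fst from day 7 on, Id1 at days 3, 14 and 21, and Mstn and Gdf5 at day 3, whereas Inhbb, Bmp4, Acvr1b and Acvr2b are open throughout.

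Of 58 other genes of the pathway, 46 were tested. On days 3, 7, 14 and 21 the numbers that rose were 11, 11, 11 and 5, and those that fell 10, 8, 7 and 2. Among all tested genes the shares higher were 23.4%, 15%, 9.02% and 1.74%, and the shares lower 19.8%, 14.4%, 11.3% and 1.69%, so that the day 3 counts of 11 and 10 of 46 were near the background. The counts of each list below are to be read against the same shares. The split depended on the scaling: with a common sum per sample 20 rose and 1 fell at day 3 and 1 rose and 0 fell at day 21, of 49 tested. In that scaling 7087 of all 15116 tested genes rose and 322 fell at day 3, and 40 rose and 5 fell at day 21. Without day 7 replicates 3 and 6, day 21 gave 7 higher and 5 lower, and day 7 gave 17 higher and 6 lower.

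Among 7 tested ligands, 2 rose and 1 fell at day 3. Gdf15, a stress-induced ligand, rose by 1.65 at day 3 (adjusted p 0.00081), from 0.077 ± 0.140 to 2.60 ± 1.196 FPKM (SD), and differed by 0.29 at day 21 (0.70). Bmp6, a BMP best known for its role in iron balance, fell by 1.25 at day 3 (0.00058), from 4.94 ± 1.25 to 1.52 ± 0.646 FPKM. Gdf6, a relative of Gdf5, was the 1 ligand of 7 called at day 21 (0.53, adjusted p 0.039), at 0.498 ± 0.253 FPKM, and did not pass with a common sum per sample (0.50, adjusted p 0.36).

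Of 11 tested receptors and co-receptors, 2 rose and 4 fell at day 3, beside 23.4% and 19.8% of all tested genes. Hfe2, the older symbol of the BMP co-receptor gene hemojuvelin, fell by 1.18 at day 3 (adjusted p 0.00034), from 353 ± 57.4 to 157 ± 29.4 FPKM, but with a common sum per sample its difference was -0.35 (0.21). Bmpr1a, a type I BMP receptor, had a difference of -0.68 at day 3 (0.0018) that became 0.03 with a common sum per sample. Relative to the median of all tested genes in that scaling, Hfe2 and Bmpr1a were at -0.85 and -0.47. Tgfbr3, betaglycan, which presents TGF-beta and inhibin, was the 1 receptor gene called at day 21 (0.74, adjusted p 0.012), and did not pass with a common sum per sample (0.83, adjusted p 0.18).

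Secreted antagonists other than Fst went both ways. Of 9 tested, Chrd, Nbl1 and Bmper rose at days 3, 7 and 14, and Wfikkn2 fell at all 4 times. Bmper, a BMP-binding endothelial regulator, rose by 0.98 at day 3 (adjusted p 0.00015) and differed by 0.07 at day 21. Nbl1, a DAN-family BMP antagonist, rose by 0.88 at day 3 (0.00095).

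Chrd, chordin, rose by 1.32 at day 14 and was still higher by 0.72 at day 21 (adjusted p of 0.00013 and 0.041). Its day 21 call ended with a common sum per sample (0.31), with each sample's own read total (0.13) and with quantile normalization (0.088). Wfikkn2, which binds myostatin and GDF11, had 3.504 ± 0.960 FPKM in uninjured muscle and 1.47 ± 0.463 at day 3, and fell by 0.86, 0.81, 0.94 and 0.84 at days 3, 7, 14 and 21 (adjusted p of 0.0034, 0.0076, 0.0043 and 0.039). With a common sum per sample none of these 4 passed, with differences of -0.30, -0.33, -0.59 and -0.66. Set against the median of all tested genes in that scaling they were -0.80, -0.80, -0.88 and -0.77.

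Of 4 genes for proteases that mature the ligands, 2 were tested. Bmp1, which frees myostatin from its propeptide, rose by 1.42, 1.39 and 1.06 at days 3, 7 and 14 and differed by 0.64 at day 21 (adjusted p 0.068). Furin, which cuts the precursors of the family, rose by 0.61 at day 3 (0.024), a call that quantile normalization ended (0.068), and did not pass at day 7 (0.50, adjusted p 0.072). Of 9 tested Smads and Smad ubiquitin ligases, 0 rose and 3 fell at day 3. Smad3 and Smad4 had differences of -0.63 and -0.42 at day 3, which turned to 0.15 and 0.30 with a common sum per sample. Relative to the median of all tested genes in that scaling they were at -0.35 and -0.20.

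Of the 5 tested BMP target genes beside Id1, Id2 and Id3 rose at all 4 times and Id4, Msx1 and Hey1 passed at none against uninjured muscle. Id2 rose by 1.55, 1.60, 1.70 and 1.43 at days 3, 7, 14 and 21, and Id3 by 1.13, 0.995, 1.33 and 1.16, with adjusted p of at most 0.012. With a common sum per sample the day 21 difference of Id2 was 1.51 and did not pass (0.11). Mean FPKM of Id2 was 1.74 ± 0.659 in uninjured muscle and 6.30 ± 0.992 at day 21. The muscle ubiquitin ligase Fbxo32 (atrogin-1), a gene of muscle wasting, fell by 1.34, 0.79, 1.13 and 1.19 at days 3, 7, 14 and 21 (adjusted p of 0.00083, 0.039, 0.0079 and 0.027). None of these 4 passed with a common sum per sample, where they were -1.06, -0.55, -0.95 and -1.10 relative to the median of all tested genes. Without day 7 replicates 3 and 6 the day 7 difference was -0.48 (adjusted p 0.20), and quantile normalization ended the calls at days 7 and 21 (0.12 and 0.061). Trim63 and Fbxo30, the other 2 genes of that list, passed at no time.

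**Figure D4:**
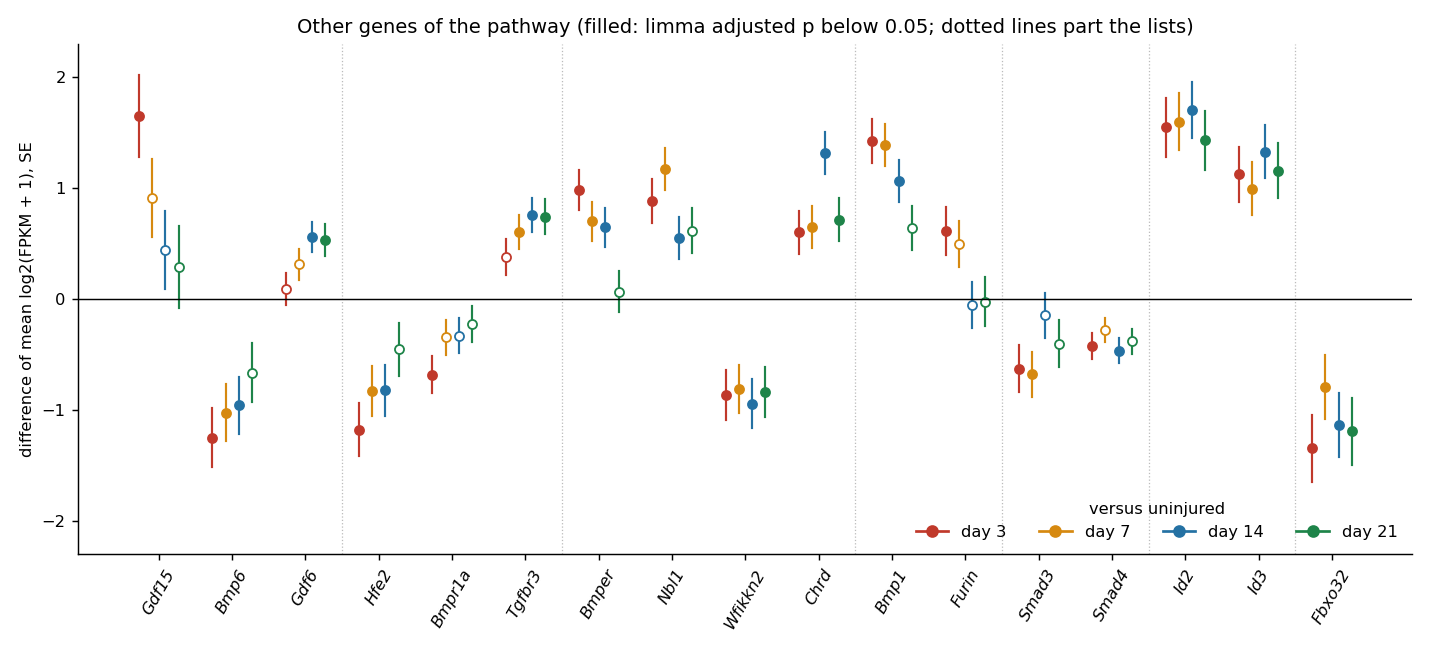
Difference of mean log2(FPKM + 1) from uninjured muscle on the y axis, with SE, for the 17 other pathway genes named by the rule, at days 3, 7, 14 and 21. Filled points have a limma adjusted p below 0.05, and dotted lines part the lists (ligands, receptors, antagonists, proteases, Smads, BMP targets, ubiquitin ligase). Id2, Id3, Wfikkn2 and Fbxo32 are filled at all 4 times.

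The tested genes most like Mstn over the 27 samples were Xpr1, Tdrp, Itpr1, Odf3l2 and Cntnap2, with Pearson r of 0.90, 0.88, 0.86, 0.84 and 0.84 on log2(FPKM + 1). Day 7 replicate 3 was the highest sample of 4 of these 5 genes, and without it r was 0.87, 0.80, 0.78, 0.74 and 0.71. For Inhba the most like were Ttc5, Ythdf2, Pop1, Mtf2 and Mettl8, with r from 0.63 to 0.69. These correlations share the time points and the scaling, and with so few reads of Inhba the second set is no finding.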

How the data were processed

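Gene-level FPKM values of 27 bulk RNA libraries were used as the authors deposited them. Per the submitters' processing notes, reads were aligned with HISAT2 2.0.5 and counted with featureCounts 1.5.0-p3, from non-directional polyA libraries. The genome build is not given in the sources used here. Coordinates of the 10 members equalled those of GENCODE for GRCm38. FPKM steps gave whole reads for 100% of values (tolerance 0.02), from which depth was read. There were 0 columns of other samples.

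Groups were taken from the labels. Genes that reached 0.5 FPKM in 5 or more samples were tested on log2(FPKM + 1) with limma 3.58.1 (R 4.3.3), with a mean trend and all 27 samples in 1 fit, with p-values adjusted by Benjamini-Hochberg for each comparison and a threshold of 0.05. A fold change on this scale understates that of low genes. Differences between genes within a sample were compared by two-sided exact permutation tests, adjusted over 12 tests. Single values had exact permutation p-values without adjustment over the members. The smallest possible was 0.00794 for 5 against 5 samples.

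Members, gene lists and tests were chosen with earlier results of these data known. Beside the members, the text names in each list the 2 called genes of largest change at day 3 and at day 21, and the 5 genes most correlated with Mstn and with Inhba. Bmp2 and other genes outside this rule are given as counts. Markers, Id4, Msx1, Hey1, Trim63 and Fbxo30 were named after their values were seen. In all, 16 alternatives were tried beside 27 fits with a sample left out, 3 of them chosen after seeing the data: leaving out day 7 replicates 3 and 6, leaving out day 3 replicate 5 and day 7 replicate 5, and taking each sample's own read total as denominator. On simulated data with 200 changed genes of 14630, the day 3 comparison recovered 67% of changes of 2 on the log2 scale and 34% of changes of 1. Python 3.11.15, numpy 2.4.6, pandas 2.3.3, scipy 1.17.1 and matplotlib 3.10.9 were used.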

Additional observations from a re-analysis of the deposited data

Results flagged for a closer look

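In 4 of 50 groups of samples, 1 sample lay far from the others of its group by Dixon's ratio (the gap to the nearest sample over the whole range), where chance flags about 1 in 20 groups. For Mstn, day 21 replicate 4 (6.37 FPKM) was the highest with a ratio of 0.951. For Inhbb, day 7 replicate 5 (1.94 FPKM) was the highest with 0.692. For Fst, uninjured replicate 3 (0.0186 FPKM) was the lowest with 0.717. For Bmp4, day 7 replicate 6 (3.78 FPKM) was the highest with 0.652.

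The effect of injury differed between days 21 and 3 for 3 of 9 tested members in limma's test of the difference itself. Of these 2 were higher and 1 lower at day 21, beside 9.23% and 16.2% of all tested genes. It was larger at day 21 by 0.781 for Fst (log2, adjusted p 0.042), a call lost in 6 of 16 alternatives, among them a common sum per sample (0.47, adjusted p 0.31). For Fstl1 the difference was -1.45 (0.000342). For Acvr1b the difference was 0.667 (adjusted p 0.0229), a call that held in 13 of 16 alternatives. It ended with a common sum per sample (0.10, adjusted p 0.76). Since both effects share the uninjured samples, this difference equals that between the day 21 and day 3 samples.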

How the results depend on the processing

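Of 15 member calls, 7 held under all 16 alternatives and 27 fits with a sample left out: Fst at day 14, Fstl1 at days 3, 7 and 14 and between days 21 and 3, and Id1 at days 3 and 14. The cause of the changes below was not tested. The number of members called was 2 at day 3 without the filter on low values. At day 7 it was 4 with a common sum per sample, 4 with the own read total as denominator and 5 without day 7 replicates 3 and 6, a setting that also gave 5 in the F test. At day 21 it was 0 with a common sum and 1 without the filter, with voom weights on recovered reads, or with the own total. Between days 21 and 3 it was 1 with a common sum and 1 with the own total. With a common sum 6457 of 15116 tested genes rose and 208 fell at day 7, and 40 and 5 at day 21. With the own total these numbers were 5443 and 424 of 14887, and 104 and 25. From day 3 to day 21 they were 166 and 5001 with a common sum, and 310 and 4592 with the own total.

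With samples left out in turn, the count ranged from 2 to 5 and 1 to 3 on days 3 and 7, 0 to 3 on day 21, 1 to 4 between days 21 and 3, and 3 to 5 in the F test. It was lowest at day 3 without day 3 replicate 2 or 4, at day 7 without uninjured replicate 3 or day 7 replicate 4, at day 21 without uninjured replicate 3 or day 21 replicate 2, and between days 21 and 3 without day 3 replicate 4. The F test gave 5 without day 7 replicate 3.

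With a common sum, direction turned for Mstn at day 7 (0.53), Acvr1b at days 3 (0.30) and 7 (0.63), Acvr2b at days 3 (0.18), 7 (0.020) and 14 (0.024) and between days 21 and 3 (-0.091), Bmp4 at days 3 (0.32) and 7 (0.27) and between days 21 and 3 (-0.12), and Id1 between days 21 and 3 (-0.48). Relative to the median of all tested genes, several of these kept their direction. They were Acvr1b at day 3 (-0.20), Acvr2b at days 3, 7 and 14 (-0.32, -0.45 and -0.26) and Bmp4 at days 3 and 7 (-0.18 and -0.20). Between days 21 and 3, Acvr2b (0.32) and Bmp4 (0.29) kept it as well. Acvr1b at day 7 (0.16) and Id1 between days 21 and 3 (-0.071) turned on this measure too. With the own total it turned for Mstn at day 7 (0.38), Acvr1b at days 3 (0.15) and 7 (0.47), Acvr2b at day 3 (0.11) and between days 21 and 3 (-0.029), Bmp4 at days 3 (0.22) and 7 (0.16) and between days 21 and 3 (-0.0024), and Id1 between days 21 and 3 (-0.32). Quantile normalization turned Acvr1b at day 7 (0.0098) and Acvr2b at day 21 (-0.077), sample quality weights turned Inhbb at day 21 (0.0087), voom turned Gdf5 between days 21 and 3 (0.12), and leaving out day 3 replicate 5 and day 7 replicate 5 turned Mstn at day 7 (0.11). A pseudocount of 0.1 turned Mstn minus fibre genes at day 3 (-0.081).

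With samples left out, values ranged from -0.48 to 0.12 for Mstn at day 7, -0.11 to 0.042 for Inhbb at day 21, -0.23 to 0.090 and -0.078 to 0.076 for Acvr1b at days 7 and 14, -0.092 to 0.12 for Acvr2b at day 21, -0.33 to 0.017 for Gdf5 between days 21 and 3, and -0.10 to 0.33 for Bmp4 at day 21. For the differences within samples they ranged from -0.023 to 0.45 for Mstn minus fibre genes at day 3, -0.98 to -0.73 and -1.43 to -0.99 for Inhba minus Fst at days 7 and 21, and 0.43 to 0.57 for Fstl1 minus fibroblast genes at day 7. Both day 7 calls, of Inhba minus Fst and of Fstl1 minus fibroblast genes, ended without uninjured replicate 1, 2 or 4 (adjusted p 0.057 each).

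Replicate numbers did not pair the samples: over 51 same-numbered pairs the correlation of deviations had a median of -0.00. With a replicate block by number 4, 2, 3, 3 and 3 members passed at days 3, 7, 14 and 21 and between days 21 and 3, and by letter 4, 2, 3, 3 and 2. The block turned Acvr1b at day 14 (-0.057 by number and -0.053 by letter) and, by letter, Id1 between days 21 and 3 (-0.062). By letter it also ended the call of Acvr1b between days 21 and 3 (0.57, adjusted p 0.060). Inhba had 0 to 53 reads and Gdf5 0 to 75 reads a sample.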
